A study of Mus musculus with 16 samples.

Results

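RNA levels in GFP+ cells of the olfactory mucosa after the odorant 2-octanone were set against those after vehicle on 8 arrays of the 16 in the series, the 4 GFP+ arrays of each exposure, chosen by their sample titles, and on every probe set that names a gene (19572). 2-Octanone is a ketone odorant. All mice were of the S100a5-tauGFP strain, in both exposures alike. The 24 mice, of both sexes and 7 to 12 weeks old, stayed alone in a chamber with 3.1 L/min of clean air for 40 h, and after 26 h they received either the odorant or filtered air, the vehicle, in pulses of 10 s every 20 min. The mucosa of 3 mice was pooled, dissociated and sorted by fluorescence, so a replicate is a pool of mice and the 8 arrays stand for 8 pools. The zygosity of the reporter is not given in the sources used here.

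Olfactory sensory neurons (OSNs) detect odorants with G protein-coupled receptors, and each mature OSN as a rule expresses a single odorant receptor gene out of a very large family. Receptor activation raises cyclic AMP through the G protein subunit Gnal and the adenylyl cyclase Adcy3, opens a cyclic nucleotide-gated channel and lets calcium in. Repeated activity switches on a further group of genes, among them S100a5, a calcium-binding protein gene, and cell adhesion genes that sort OSN axons. In the reporter strain GFP marks cells that have expressed S100a5, so the sort is meant to enrich OSNs that responded, and with them the RNA of their receptors.

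The arrays carried strong signals for the markers of mature OSNs. The 18 markers of mature OSNs averaged 15.39 to 15.66 (log2 signal) per array, where background probe sets averaged 5.40 to 5.61. Omp, the olfactory marker protein gene of mature OSNs, read 18.45, 18.39, 18.41 and 18.36 with 2-octanone against 18.37, 18.35, 18.43 and 18.37 with vehicle. The groups overlapped, and the difference was 0.03 (SE 0.11, 95% interval −0.22 to 0.27). Array medians were 7.64 to 7.73. Across probe sets, r was 0.984 to 0.993 within an exposure and 0.984 to 0.994 between exposures. Some arrays stood apart. S100a5 and Fos did so in the replicate 4 pools of both exposures, neutrophil genes in octanone replicates 3 and 4, and genes of glands and supporting cells in the replicate 3 pools and vehicle replicate 4. The 3 measured sex-linked genes averaged 4.43 and 3.95 in the replicate 1 pools, and 10.33 to 11.32 in the others.

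No gene differed between the exposures at a Benjamini-Hochberg adjusted p under 0.05 (limma, 0 of 19572, 0.0%), and the smallest adjusted p was 0.9998. With the replicate number as a block the count was also 0 of 19572 (0.0%), with 0.258 as the smallest adjusted p, that of the receptor Olfr1098. At an unadjusted p under 0.05 there were 582 probe sets (2.97%), 336 with a higher mean after 2-octanone (1.72%) and 246 with a lower one (1.26%). A uniform p would put a share of 0.05 of all probe sets there, so this count was below that share. With the block there were 1044 (5.33%), 545 higher (2.78%) and 499 lower (2.55%). With each array centred on its median the split of 336 and 246 turned into 266 and 311, so which direction prevails depends on the scaling. Over all probe sets the median difference was 0.01. Every value below is therefore a measurement with its interval, and none is a call.

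The 4 arrays per exposure set how small a difference could be measured. The 95% interval of a difference reached 0.39 (log2) to either side for the median probe set and 0.64 for the median odorant receptor. It stayed within 1, a 2-fold difference, for 98.4% of all probe sets and for 85.6% of receptors. For the remaining receptors the interval reached beyond a 2-fold difference to either side of the estimate. The p-values measure the spread between pools of mice. Intervals and SE of single genes here are those of the fit without the replicate block.

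**Figure D1:**
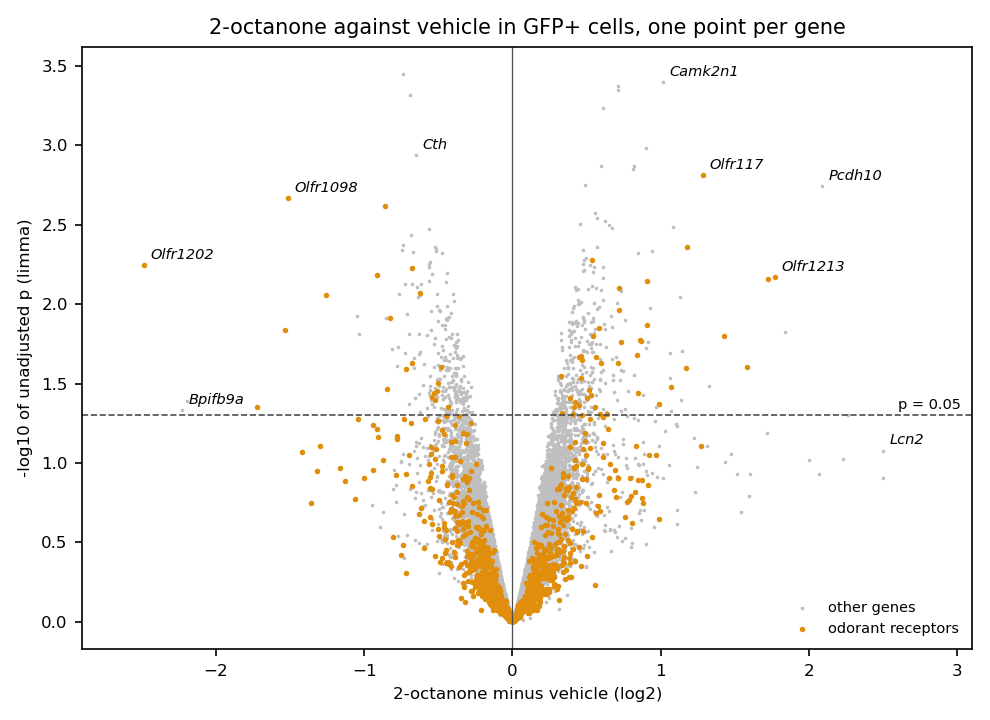
Each point is a gene, placed by its difference between 2-octanone and vehicle in GFP+ cells (horizontal axis, log2) and by −log10 of limma's unadjusted p (vertical axis), with odorant receptors in orange and other genes in grey. Receptors reach far to both sides, Olfr1202 at −2.48 and Olfr1213 at 1.77, and none of the 19572 probe sets passed adjustment.

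The question behind the experiment is which odorant receptors answer 2-octanone. The array named 1081 intact odorant receptors. At an unadjusted p under 0.05, 41 of them (3.79%) had a higher and 20 (1.85%) a lower mean after 2-octanone, against 1.72% and 1.26% of all probe sets. With the replicate block it was 69 and 58, against 2.78% and 2.55%. The 61 receptors without the block were near the share of 0.05 that a uniform p would give. The 127 with the block were above it. The excess of higher over lower receptors depended on the setting. It was larger without octanone replicate 1 (50 and 20), vehicle replicate 2 (48 and 23) or vehicle replicate 3 (44 and 16). Median centring (33 and 29) and quantile normalisation (36 and 27), among others, made it smaller. The order turned round without vehicle replicate 1 (26 and 30), octanone replicate 3 (29 and 35) or vehicle replicate 4 (32 and 41). It also did so without both replicate 4 pools (28 and 35) or octanone replicates 3 and 4 (28 and 39). The receptors' differences ran from −2.48 to 1.77 with a median of −0.02, and 516 were positive and 565 negative. Over 2-fold differences were found for 9 receptors higher and 13 lower, where all probe sets gave 44 (0.225%) and 17 (0.0869%). Of these 22 receptors, 10 remained over 2-fold without octanone replicates 3 and 4.

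A stricter view asks for exposures whose arrays do not overlap. All 4 arrays after 2-octanone lay above all 4 after vehicle for 5 receptors (0.463%), and below them for 9 (0.833%). Over all probe sets this was so for 182 (0.93%) and 168 (0.858%). Within every replicate number the array with 2-octanone was the higher for 70 receptors and the lower for 79, where all probe sets gave 1252 (6.4%) and 1247 (6.37%). The 5 receptors without overlap on the higher side were Olfr117, Olfr393, Olfr47, Olfr459 and Olfr938, the last named here after its values were seen.

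Olfr117 had the smallest p among receptors with a higher mean. It read 11.85, 12.22, 11.50 and 11.92 with 2-octanone against 9.70, 10.79, 10.55 and 11.30 with vehicle. The lowest array after 2-octanone was that of replicate 3, the highest after vehicle that of replicate 4, and they did not overlap. The difference was 1.29 (SE 0.30, 95% interval 0.62 to 1.96), or 2.44-fold. Its neighbour in the chromosome 17 cluster, Olfr116, differed by 0.80, and the next receptor on the other side, Olfr118, by 0.30. Both neighbours were named after their values were seen.

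Olfr393 read 8.81, 8.45, 8.52 and 9.99 with 2-octanone against 7.35, 7.72, 7.81 and 8.18 with vehicle, with the highest of all in octanone replicate 4. Its difference was 1.18 (SE 0.32, 95% interval 0.46 to 1.90). Olfr47 varied little within each exposure and read 9.52, 9.19, 9.07 and 9.07 with 2-octanone against 8.46, 8.62, 8.80 and 8.83 with vehicle. Its difference of 0.53 (SE 0.15, 95% interval 0.20 to 0.87) was small beside those of other receptors in this group but had a narrow interval. Olfr459 lay close to background and read 7.08, 6.97, 7.73 and 8.27 with 2-octanone against 6.52, 6.62, 6.90 and 6.40 with vehicle. Octanone replicates 3 and 4 held its highest values, and its difference of 0.90 was 0.58 without both replicate 4 pools and 0.42 without those 2 octanone replicates. Olfr938 also lay close to background, with a difference of 0.33 (SE 0.13, 95% interval 0.04 to 0.62).

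The largest differences upwards were in receptors whose exposures overlapped. Olfr1213 read 8.63, 7.99, 8.46 and 9.57 with 2-octanone against 6.11, 8.45, 5.91 and 7.09 with vehicle. Vehicle replicate 2 was above octanone replicate 2, while the other vehicle arrays were below every array after 2-octanone. The difference was 1.77 (SE 0.52, 95% interval 0.61 to 2.94). Olfr77 read 7.79, 8.33, 9.34 and 8.93 with 2-octanone against 5.43, 7.56, 7.91 and 6.59 with vehicle, and within each replicate number the array after 2-octanone was the higher. Its difference was 1.72 (SE 0.51, 95% interval 0.59 to 2.86), or 3.31-fold. Olfr1384 read 7.01, 7.89, 8.33 and 9.69 with 2-octanone against 6.14, 7.50, 6.94 and 6.63 with vehicle. Its difference of 1.43 rested in large part on octanone replicate 4 and was 0.94 without it and 0.64 without octanone replicates 3 and 4.

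The strongest signals in this group of receptors were those of Olfr286 and Olfr130. Olfr286 read 12.13, 12.26, 11.72 and 11.40 with 2-octanone against 11.25, 11.53, 10.86 and 11.00 with vehicle, higher after 2-octanone within each replicate number. Its difference was 0.72 (SE 0.22, 95% interval 0.23 to 1.20). Olfr130 read 12.54, 12.68, 12.26 and 12.43 with 2-octanone against 11.15, 11.62, 11.95 and 12.33 with vehicle, with the vehicle arrays spread more widely than those after 2-octanone. Its difference was 0.72 (SE 0.23, 95% interval 0.20 to 1.23). The remaining receptors among the 12 with the smallest p were Olfr1042 (0.90, and 0.35 without octanone replicates 3 and 4), Olfr381 (0.58) and Olfr1230 (0.54), all of them near background.

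Among receptors with a lower mean after 2-octanone, Olfr1098 had the smallest p. It read 7.59, 8.99, 8.999 and 8.88 with 2-octanone against 9.24, 10.18, 10.43 and 10.66 with vehicle. The exposures did not overlap, and the array after 2-octanone was lower within every replicate number. The difference was −1.51 (SE 0.37, 95% interval −2.34 to −0.69), or 2.85-fold. Its neighbours on either side in the chromosome 2 cluster were Olfr1097, at −0.90, and Olfr1099. Olfr1099 read 12.59, 12.55, 12.53 and 10.77 with 2-octanone against 13.24, 12.94, 13.85 and 13.43 with vehicle, without overlap, and octanone replicate 4 was far below the others. Its difference of −1.25 was −0.81 without that array. The next receptor beyond it, Olfr1100, differed by 0.22. Olfr1097 and Olfr1100 were named after their values were seen, and whether probe sets of neighbouring receptors share sequence was not tested.

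Olfr1090, in the same cluster, read 8.52, 8.85, 9.25 and 8.999 with 2-octanone against 9.44, 9.50, 9.87 and 10.24 with vehicle, again without overlap. Its difference was −0.86 (SE 0.21, 95% interval −1.33 to −0.38). Olfr12 read 9.85, 9.87, 9.74 and 9.36 with 2-octanone against 10.19, 10.77, 10.57 and 10.00 with vehicle, and all arrays after 2-octanone were below all after vehicle. Its difference was −0.68 (SE 0.20, 95% interval −1.11 to −0.24). Olfr394 gave strong signals, at 13.20, 13.88, 13.78 and 13.18 with 2-octanone against 14.23, 14.18, 14.21 and 13.89 with vehicle. The exposures differed by −0.62 (SE 0.19, 95% interval −1.04 to −0.20) without overlap. Olfr1024, near or below background after 2-octanone, differed by −0.92 (−0.55 without both replicate 4 pools), without overlap. Olfr894, whose exposures overlapped, differed by −0.83. The other 3 receptors without overlap, named after their values were seen, were Olfr395 (−0.53), Olfr1015 (−1.42) and Olfr504 (−0.28).

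Of all receptors the largest difference was that of Olfr1202, at 8.62, 10.32, 9.39 and 6.51 with 2-octanone against 10.30, 10.97, 11.15 and 12.37 with vehicle. The arrays of replicate 4 lay at opposite ends, the lowest after 2-octanone and the highest after vehicle. The difference of −2.48 (SE 0.71, 95% interval −4.07 to −0.90) became −1.36 without both. The same pair of arrays stood at opposite ends for Olfr1204, which lies near Olfr1202 on chromosome 2 and was named after its values were seen. Olfr1204 read 9.14, 10.41, 10.43 and 7.15 with 2-octanone against 9.48, 10.97, 11.25 and 12.34 with vehicle, with a difference of −1.73.

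**Figure D2:**
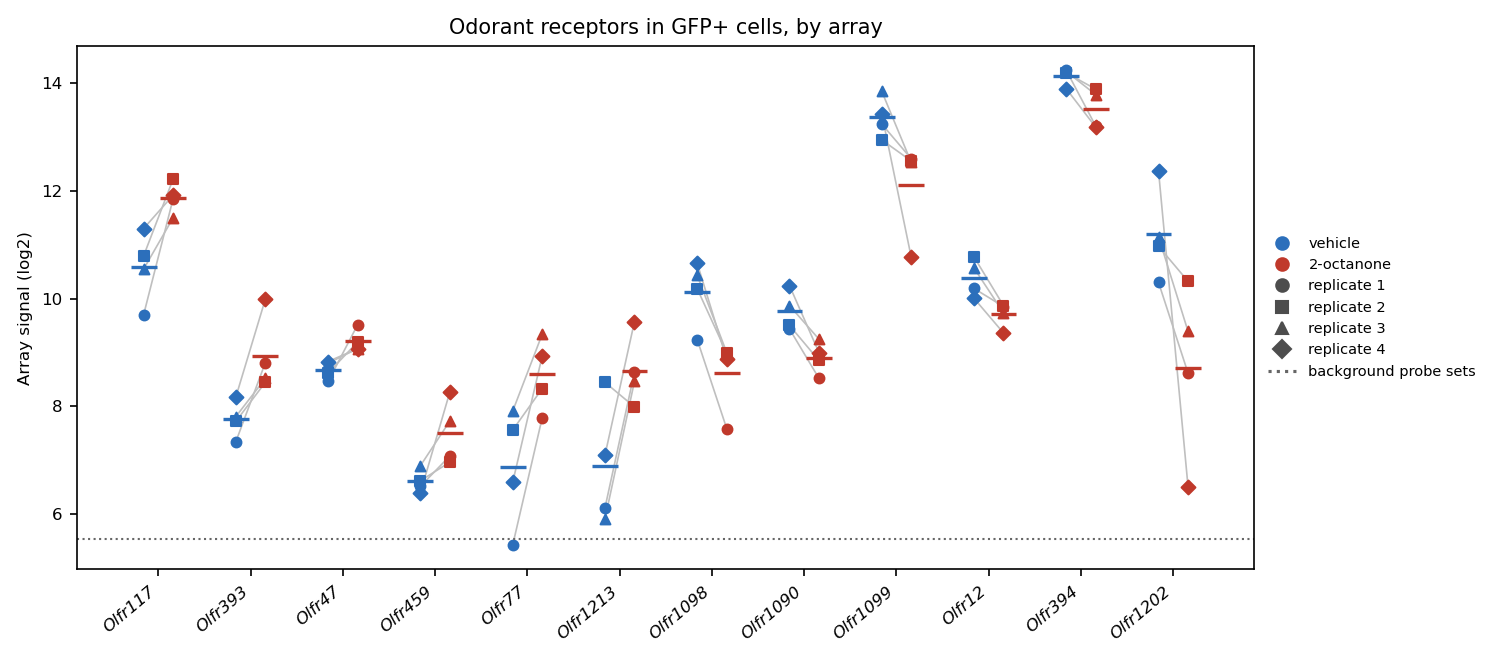
Signals (vertical axis, log2) of 12 odorant receptors on the 8 GFP+ arrays, vehicle in blue and 2-octanone in red, with a shape per replicate number, grey lines joining like numbers, short bars for the mean of 4 and a dotted line for the mean of background probe sets. The first 6 receptors have higher and the last 6 lower means after 2-octanone, with no overlap for Olfr117, Olfr393, Olfr47 and Olfr459 on the one side and for Olfr1098, Olfr1090, Olfr1099, Olfr12 and Olfr394 on the other.

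Neighbouring receptors could differ in opposite directions. On chromosome 11, 7 of 78 receptors had a higher and 2 a lower mean at an unadjusted p under 0.05, and there the pair that lies side by side, Olfr393 and Olfr394, differed in opposite directions (1.18 and −0.62). On chromosome 2, 9 of 282 were higher and 10 lower, against 1.72% and 1.26% of all probe sets. The split also differed by level. Of the 249 receptors whose mean was less than 2 log2 units above background, 19 were higher and 5 lower, and of the 832 above that level, 22 and 15. These counts were 30 and 16, and 39 and 42, with the replicate block, against 2.78% and 2.55% of all probe sets. The medians of these groups were 0.07 and −0.03.

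The array also names other chemoreceptor families. The trace amine-associated receptors sense amines. None of 15 passed an unadjusted p under 0.05 in either direction, and their median was −0.04. The block gave 1 lower. Of 201 vomeronasal type 1 receptors, which belong to another sense organ, 4 were higher and 12 lower (5.97%, against 1.26% of all probe sets), at signals of 2.75 to 8.45. With the block it was 7 and 16, against 2.78% and 2.55% of all probe sets. Of 120 vomeronasal type 2 receptors 6 were higher and 6 lower, and with the block 8 and 8. One of the latter, Vmn2r46, read 7.60, 7.72, 7.37 and 6.87 with 2-octanone against 7.90, 8.09, 8.10 and 8.13 with vehicle, without overlap, and differed by −0.67 (SE 0.19, 95% interval −1.08 to −0.26).

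Among genes known to follow OSN activity, the protocadherin gene Pcdh10 read 4.25-fold higher after 2-octanone, with no overlap between the exposures. Of 16 measured members of the activity-dependent list 12 were positive and 4 negative, with a median of 0.13 against 0.01 for all probe sets. At an unadjusted p under 0.05, 3 had a higher mean and none a lower one, against 1.72% and 1.26% of all probe sets. With the replicate block it was 6 and none, against 2.78% and 2.55%. The list averaged 13.04, 12.91, 12.84 and 12.31 after 2-octanone and 12.49, 12.77, 12.54 and 11.97 after vehicle. It was higher after 2-octanone within each replicate number and lowest in both replicate 4 pools. Leaving out only 1 of these pools breaks that pair. The list's median was then 0.022 without vehicle replicate 4 and 0.25 without octanone replicate 4. Pcdh10, whose product mediates adhesion between like cells, read 12.84, 12.18, 11.07 and 10.49 with 2-octanone against 9.55, 10.43, 9.53 and 8.72 with vehicle. Replicates 1 and 2 were the highest after 2-octanone, and the lowest, replicate 4, was still above every vehicle array. The difference was 2.09 (SE 0.50, 95% interval 0.98 to 3.20). Within the replicate numbers 1 to 4 the difference was 3.28, 1.76, 1.54 and 1.77. Without octanone replicates 3 and 4 it was 2.95, and in none of the settings tried was it under 1.69.

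Sema7a encodes a membrane-anchored semaphorin. It read 14.72, 14.41, 13.98 and 13.94 with 2-octanone against 13.83, 14.14, 13.67 and 13.39 with vehicle. The exposures overlapped, but the array after 2-octanone was the higher within every replicate number. The difference was 0.50 (SE 0.22, 95% interval 0.03 to 0.98). Calb2, the calretinin gene, read 13.34, 13.84, 13.73 and 13.71 with 2-octanone against 12.98, 13.63, 13.01 and 13.24 with vehicle, likewise higher within every number. Its difference was 0.44 (SE 0.18, 95% interval 0.04 to 0.84). Kirrel2, an adhesion gene that sorts axons by activity, read 15.13, 14.64, 15.01 and 13.95 with 2-octanone against 13.82, 14.76, 13.98 and 12.78 with vehicle. It was lower in octanone than in vehicle replicate 2, and its difference of 0.85 (SE 0.39, 95% interval −0.02 to 1.71) missed an unadjusted p of 0.05 (0.49 without vehicle replicate 4).

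S100a5, the gene of the reporter, read 16.98, 16.63, 16.80 and 13.92 with 2-octanone against 16.71, 16.47, 16.47 and 13.22 with vehicle. Both replicate 4 pools were far below the others, while within each replicate number the array after 2-octanone was the higher, by 0.27, 0.16, 0.34 and 0.71. The difference of 0.37 (SE 0.85, 95% interval −1.53 to 2.27) had a limma unadjusted p of 0.676, and of 0.0281 with the replicate block. Leaving out only 1 of the 2 low replicate 4 pools breaks that pair and by itself moves the difference. It was −0.47 without the vehicle pool and 1.09 without the octanone pool. Other activity-dependent genes gave values near 0, such as Kirrel3 at 0.06 and Pcp4l1 at 0.08.

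Immediate early genes are the first to be transcribed after a stimulus. Of 22 measured, 16 were positive and 6 negative, with a median of 0.15. At an unadjusted p under 0.05, 2 were higher and none lower, against 1.72% and 1.26% of all probe sets. With the block it was 5 and none, against 2.78% and 2.55%. The list averaged 8.41, 8.41, 8.72 and 8.78 on the arrays after 2-octanone and 8.27, 8.40, 8.41 and 8.48 after vehicle, highest in octanone replicates 3 and 4. Without those 2 arrays its median was 0.047. Nr4a1, an orphan nuclear receptor gene, read 9.34, 8.05, 9.10 and 8.29 with 2-octanone against 7.30, 8.45, 7.80 and 7.56 with vehicle. Vehicle replicate 2 was above octanone replicate 2, and the other pairs had the opposite order. The difference was 0.92 (SE 0.32, 95% interval 0.20 to 1.64). Junb, a subunit of the transcription factor AP-1, read 7.44, 7.84, 8.22 and 8.81 with 2-octanone against 6.89, 7.24, 7.46 and 7.92 with vehicle, and was higher after 2-octanone within every number. Its difference of 0.70 (SE 0.30, 95% interval 0.04 to 1.37) was 0.46 without octanone replicate 4 and 0.27 without octanone replicates 3 and 4. Btg2, an antiproliferative gene, differed by 0.51, and by 0.20 without octanone replicate 4. Fos itself read 8.46, 9.04, 9.41 and 12.05 with 2-octanone against 9.20, 9.22, 9.20 and 10.88 with vehicle, where the replicate 4 pools had the highest values of both exposures. Its difference of 0.11 (SE 0.70, 95% interval −1.44 to 1.67) took either sign depending on the arrays left out, from −0.88 to 0.54.

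**Figure D3:**
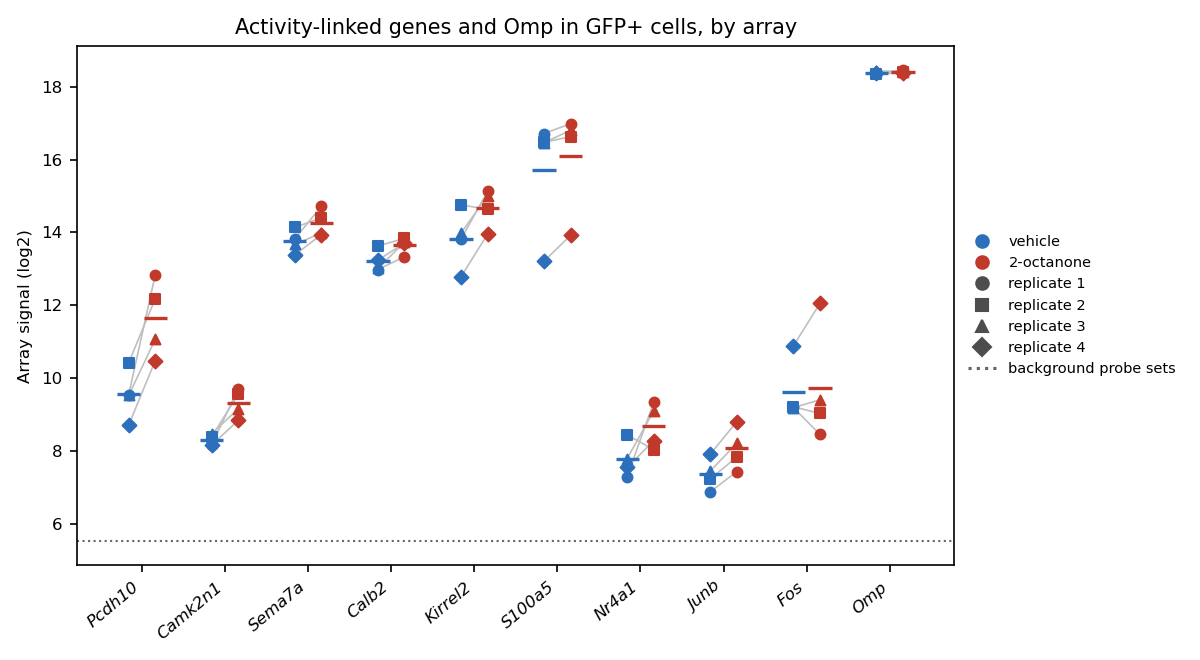
Signals (vertical axis, log2) of activity-dependent genes, immediate early genes, Camk2n1 and Omp on the 8 GFP+ arrays, drawn as for the receptors with a shape per replicate number, short bars for the mean of 4 and a dotted line for background probe sets. Pcdh10 and Camk2n1 do not overlap between exposures, S100a5 and Fos stand apart in the replicate 4 pools, and Omp differs by 0.03.

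In neurons calcium and cyclic AMP act on many genes through the transcription factor CREB, which binds the cyclic AMP response element (CRE). Of the genes that passed an unadjusted p under 0.05 in these 2 lists, 4 of 5 had an entry in the RefSeq promoter set used (GRCm38.p6). Their promoters are shown. Each runs over the 250 bases before the annotated start, 5′ to 3′ on the gene's strand, and capitals mark the CRE core TGACG on either strand (CGTCA where it lies on the other).
Pcdh10 (chr3:45378148-45378397, + strand): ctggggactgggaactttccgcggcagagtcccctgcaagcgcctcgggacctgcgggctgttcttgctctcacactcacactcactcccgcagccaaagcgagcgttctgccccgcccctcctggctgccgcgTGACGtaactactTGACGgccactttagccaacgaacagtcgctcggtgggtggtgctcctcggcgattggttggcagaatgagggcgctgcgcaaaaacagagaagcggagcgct
Nr4a1 (chr15:101266596-101266845, + strand): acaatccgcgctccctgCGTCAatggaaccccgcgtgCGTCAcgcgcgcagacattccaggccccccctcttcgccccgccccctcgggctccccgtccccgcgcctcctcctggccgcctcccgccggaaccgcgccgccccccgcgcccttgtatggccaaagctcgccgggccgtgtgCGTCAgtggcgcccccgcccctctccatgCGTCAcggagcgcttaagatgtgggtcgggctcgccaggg
Junb (chr8:84978749-84978998, − strand): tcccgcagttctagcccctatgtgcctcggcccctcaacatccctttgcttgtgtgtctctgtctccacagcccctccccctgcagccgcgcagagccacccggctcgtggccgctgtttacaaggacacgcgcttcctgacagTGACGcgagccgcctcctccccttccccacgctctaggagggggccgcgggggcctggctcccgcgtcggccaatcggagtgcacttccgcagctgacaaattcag
Sema7a (chr9:57939862-57940111, + strand): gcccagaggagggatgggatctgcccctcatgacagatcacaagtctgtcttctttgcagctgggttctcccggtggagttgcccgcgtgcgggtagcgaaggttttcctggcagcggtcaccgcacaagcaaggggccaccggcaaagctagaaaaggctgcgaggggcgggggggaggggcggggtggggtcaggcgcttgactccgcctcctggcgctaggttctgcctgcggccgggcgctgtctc
Pcdh10 had 2 cores, beginning 116 and 103 bases before the start, Nr4a1 had 4, Junb 1 and Sema7a 0. Among 27025 promoters of this length, 17.9% held at least 1 core and 4.02% at least 2. The full CRE, TGACGTCA, which contains the core on both strands, was in none of these 4 and in 1.62% of all. These matches are a description of letters, not of binding. Calb2 was the other of the 5 genes.

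In the machinery of odorant transduction no difference was detected. None of 22 measured genes passed an unadjusted p under 0.05 in either direction, and their differences ran from −0.22 to 0.11 with a median of 0.00. Gnal differed by −0.05 (SE 0.16, 95% interval −0.40 to 0.30), Adcy3 by 0.02 (SE 0.13, 95% interval −0.27 to 0.31) and the channel subunit gene Cnga2 by 0.03 (SE 0.12, 95% interval −0.23 to 0.30). These intervals exclude a 2-fold difference in either direction. The 18 mature OSN markers had a median of 0.02, the 17 immature OSN markers 0.05, the 19 presynaptic genes 0.01 and the 19 regulators of receptor choice −0.01, with no member of any of them past an unadjusted p under 0.05. Dorsal and ventral zone genes had medians of 0.05 and −0.03, also with none, and with the replicate block 1 of each was lower.

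Calcium and calmodulin kinase genes had 2 of 23 members higher and none lower at an unadjusted p under 0.05, against 1.72% and 1.26% of all probe sets, and the same counts with the replicate block. Camk2n1, an inhibitor of calmodulin-dependent kinase II, read 9.72, 9.57, 9.16 and 8.85 with 2-octanone against 8.18, 8.40, 8.49 and 8.17 with vehicle. The exposures did not overlap, and the lowest array after 2-octanone, replicate 4, was still above the highest after vehicle, replicate 3. The difference was 1.01 (SE 0.20, 95% interval 0.58 to 1.45), or 2.02-fold, and it stayed between 0.88 and 1.33 in every setting tried. The other member was Calb2. The kinases Camk2a, Camk2b, Camk2d and Camk4 differed by −0.05, 0.27, 0.04 and 0.21, and none passed an unadjusted p under 0.05. The 24 axon guidance and adhesion genes had 1 higher and none lower, and with the block 2 and 1.

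Among the other genes with a higher mean, the smallest p after Camk2n1 were those of 3110082I17Rik and Pcdh10. 3110082I17Rik read 10.49, 10.36, 10.43 and 10.36 with 2-octanone against 9.94, 9.79, 9.97 and 9.97 with vehicle, without overlap, and differed by 0.49 (SE 0.12, 95% interval 0.23 to 0.75). Rita1, a tubulin-binding inhibitor of Notch signalling, read 8.06, 7.89, 8.14 and 7.96 with 2-octanone against 7.74, 7.44, 7.37 and 7.26 with vehicle, also without overlap. Its difference was 0.56 (SE 0.14, 95% interval 0.24 to 0.88). Hap1, which binds huntingtin and takes part in transport within neurons, read 9.44, 9.26, 9.31 and 9.19 with 2-octanone against 8.91, 9.03, 8.94 and 8.40 with vehicle, and its exposures did not overlap. Its difference was 0.48 (SE 0.16, 95% interval 0.13 to 0.84). Rel, a subunit of the transcription factor NF-κB, differed by 0.40, the splicing regulator gene Hnrnpll by 0.41, the phosphoglucomutase gene Pgm2 by 0.44 (0.29 without both replicate 4 pools) and the glycosylation gene Alg13 by 0.38. The cytokine gene Tnfsf14 differed by 0.48, the zinc finger gene Zfp367 by 0.41 and AW209491 by 0.39.

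Among genes with a lower mean, Cpe, the carboxypeptidase that processes neuropeptide precursors, read 13.69, 14.36, 14.07 and 14.10 with 2-octanone against 14.73, 14.52, 14.67 and 14.51 with vehicle. All arrays after 2-octanone lay below all after vehicle. The difference was −0.56 (SE 0.16, 95% interval −0.91 to −0.20). Mrps24, of the mitochondrial ribosome, read 8.70, 9.11, 8.86 and 8.81 with 2-octanone against 9.18, 9.43, 9.36 and 9.55 with vehicle, without overlap. Its difference was −0.51 (SE 0.14, 95% interval −0.83 to −0.20). Adgb, the androglobin gene, read 9.45, 9.91, 9.90 and 9.93 with 2-octanone against 10.36, 10.24, 10.28 and 10.38 with vehicle, lower without overlap, with octanone replicate 1 below the rest of its group. Its difference was −0.52 (SE 0.14, 95% interval −0.84 to −0.20). Gramd1a, a gene of cholesterol transport at membrane contacts, differed by −0.47, the iron-sulphur cochaperone gene Hscb by −0.57, Pgls of the pentose phosphate pathway by −0.37, and Uevld, Caprin2 and Ttc41 by −0.49, −0.38 and −0.39. The zinc finger genes Zfp329 and Zfp94 differed by −0.45 and −0.44.

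Cth, which encodes the cysteine-making enzyme cystathionine γ-lyase, was the only member of the 24 integrated stress response genes at an unadjusted p under 0.05. It read 6.70, 6.93, 6.53 and 6.81 with 2-octanone against 7.20, 7.29, 7.51 and 7.58 with vehicle. The exposures did not overlap, and the difference was −0.65 (SE 0.15, 95% interval −0.97 to −0.33). The median of that list was −0.01. None of 11 heat shock genes passed the same threshold.

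Most of the largest upward differences outside receptors went with 2 of the arrays. Of 35 other genes over 2-fold higher, 30 had octanone replicates 3 and 4 as their highest 2 arrays, 10 were in the neutrophil list, and 12 passed an unadjusted p under 0.05. Their median difference of 1.25 was 0.12 without those 2 arrays, and 15 of the 35 were then below 0. Camk2n1 and Pcdh10 were the only 2 of the 35 that stayed over 2-fold. The 4 whose exposures did not overlap were these and, named after their values were seen, Fam111a (1.09) and Tgfbi (1.13).

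Neutrophil genes were high in 2 pools given 2-octanone. The 14 measured markers averaged 6.85, 6.88, 8.93 and 11.18 on the arrays after 2-octanone, and 6.77, 6.86, 6.50 and 7.62 after vehicle. All 14 had a positive difference, with a median of 1.49, and it was −0.14 without octanone replicates 3 and 4. At an unadjusted p under 0.05, 2 were higher, against 1.72% of all probe sets, and with the block 6, against 2.78%. Lcn2, an iron-withholding lipocalin gene, read 8.61, 8.79, 13.14 and 15.23 with 2-octanone against 8.57, 8.47, 8.49 and 10.24 with vehicle, with octanone replicates 3 and 4 far above the rest. Its difference of 2.50 (SE 1.31, 95% interval −0.40 to 5.40) was −0.24 without them. Chil3, a chitinase-like gene of myeloid cells, differed by 2.26 and, without them, by 0.11. Ltb4r1, a leukotriene receptor gene, differed by 0.93 and 0.48. In bulk samples such as these, a difference in the number of cells of a type and one in RNA per cell cannot be told apart.

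Markers of bone marrow precursors went with them. Their mean was 6.36, 6.29, 6.89 and 7.72 after 2-octanone, against 6.66, 6.29, 6.11 and 6.24 after vehicle. Of 12, 1 was higher at an unadjusted p under 0.05 and 2 with the block, against 1.72% and 2.78% of all probe sets. Without the block that gene was the myeloperoxidase gene Mpo, at 1.15 (SE 0.41, 95% interval 0.22 to 2.07), and 0.44 without octanone replicates 3 and 4. Of the 15 dividing cell markers 13 were positive (median 0.23), and Mki67 differed by 1.11 (SE 0.52, 95% interval −0.05 to 2.27), 0.40 without those arrays. All 10 globose basal and precursor markers were positive (median 0.18), and none of them passed an unadjusted p under 0.05. Their mean was 6.93, 7.01, 7.05 and 7.24 after 2-octanone, against 6.85, 6.81, 6.77 and 6.80 after vehicle. Octanone replicates 1 and 2 thus also lay above every vehicle array. The block gave 2 higher among the dividing cell markers and 1 among the globose basal markers, against 2.78% of all probe sets. The fibronectin gene Fn1, of the fibroblast list, differed by 1.06, and by 0.30 without octanone replicates 3 and 4. Most of its list had the opposite sign, with 6 of 9 genes negative and a median of −0.14.

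The opposite sign prevailed among genes of glands and supporting cells. Of 14 genes of Bowman's glands, which secrete the mucus, 11 were negative, with a median of −0.46, and of 14 genes of sustentacular cells, the supporting cells of the epithelium, 12 were negative, with a median of −0.39. Bpifb9a, a secreted gland protein gene, was the only member of these lists at an unadjusted p under 0.05 and read 8.64, 11.76, 8.88 and 11.25 with 2-octanone against 10.99, 12.85, 10.64 and 14.96 with vehicle. It varied widely within each exposure, and the array after 2-octanone was lower within every replicate number. Its difference of −2.23 (SE 0.98, 95% interval −4.42 to −0.04) was −1.36 without vehicle replicate 4. With the replicate block the SE was 0.38, and limma gave an unadjusted p of 0.000722 and an adjusted p of 0.928. With the replicate block 3 of each list were lower and none higher, against 2.55% and 2.78% of all probe sets. The odorant-binding protein gene Obp2a differed by −0.77 (SE 0.69, 95% interval −2.31 to 0.76), and by −0.22 without vehicle replicate 4. The stem and supporting cell gene Sox2 differed by −0.38, and by −0.20 without octanone replicate 3.

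The array means of these lists moved together with particular pools. Bowman's gland genes averaged 9.04, 9.01, 8.20 and 9.04 after 2-octanone and 9.11, 9.59, 8.27 and 10.40 after vehicle, low in both replicate 3 pools and high in vehicle replicate 4. Without vehicle replicate 4 the median of that list was −0.09. Sustentacular genes averaged 10.05, 10.36, 9.42 and 9.89 after 2-octanone and 10.52, 10.51, 9.48 and 10.46 after vehicle, again low in both replicate 3 pools. Their median was 0.00 without octanone replicates 3 and 4, a setting that keeps vehicle replicate 3, the lowest vehicle array. Within each replicate number the mean of the sustentacular genes was lower after 2-octanone. Macrophage genes had a median of −0.29 with 9 of 15 negative, and their means ran from 7.47 to 8.41 after 2-octanone and from 7.21 to 8.66 after vehicle. The other 6 were positive, and the list's differences ran from −0.75 to 0.66. None passed an unadjusted p under 0.05, and with the block 1 was higher and 3 lower, against 2.78% and 2.55% of all probe sets. Csf1r, the receptor gene of the macrophage growth factor, differed by −0.65 (SE 0.33, 95% interval −1.39 to 0.09), and the complement gene C1qa by −0.75 (SE 0.41, 95% interval −1.67 to 0.17), −0.45 without octanone replicate 3 and −0.14 without octanone replicates 3 and 4. Cd14, a lipopolysaccharide co-receptor gene of the same list and named after its values were seen, had the opposite sign, at 0.47 (SE 0.32, 95% interval −0.24 to 1.18), and 0.24 without octanone replicate 4. The part of these cells in the differences of other genes was not tested.

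**Figure D4:**
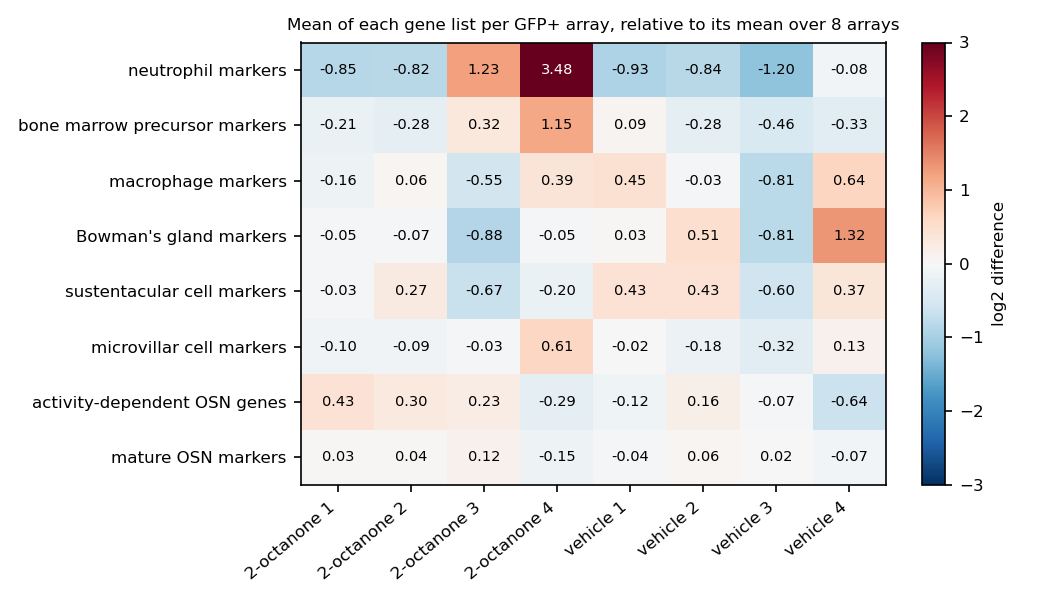
Mean log2 signal of 8 gene lists on each GFP+ array, as the difference from the list's mean over the 8 arrays (colour and printed value, red above and blue below). Neutrophil genes are high in octanone replicates 3 and 4 (8.93 and 11.18), gland genes are high in vehicle replicate 4 (10.40) and low in both replicate 3 pools, and mature OSN genes hardly vary.

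Enzymes that break down odorants and other foreign compounds are made largely by supporting and gland cells. Of 32 measured members 1 had a higher and 1 a lower mean at an unadjusted p under 0.05, against 1.72% and 1.26% of all probe sets. With the replicate block it was 2 and 8, against 2.78% and 2.55%. Cyp2e1, a cytochrome P450 gene that metabolises small solvents and ketones, lay below background on most arrays, with a difference of 0.47 (SE 0.19, 95% interval 0.05 to 0.88), 0.28 without octanone replicate 3. Gstp1, a glutathione transferase gene, read 7.22, 7.17, 7.23 and 7.71 with 2-octanone against 7.92, 8.22, 7.42 and 7.65 with vehicle, and the exposures overlapped through octanone replicate 4. Its difference was −0.47 (SE 0.20, 95% interval −0.91 to −0.03). The epoxide hydrolase gene Ephx1 read 11.71, 11.68, 11.70 and 11.13 with 2-octanone against 12.03, 12.10, 11.74 and 11.81 with vehicle, without overlap, and differed by −0.36 (SE 0.17, 95% interval −0.74 to 0.01), −0.22 without octanone replicate 4. Hsd11b1, a steroid reductase gene, differed by 0.47 (0.25 without octanone replicate 4). The sustentacular P450 gene Cyp1a2 differed by −0.62 (SE 0.40, 95% interval −1.51 to 0.27), which was 0.046 without octanone replicates 3 and 4. That setting keeps vehicle replicate 3, where Cyp1a2 was low (8.90). The list as a whole had a median of −0.09, and its array means of 9.16 and 9.17 in the replicate 3 pools were below the 9.51 to 9.75 of the others, as for the sustentacular genes.

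For the markers of the remaining cell types the medians were 0.14 for microvillar cells, 0.17 for neurons with guanylyl cyclase D, 0.05 for horizontal basal cells, −0.13 for ciliated respiratory cells, 0.12 for lymphocytes, 0.00 for erythroid cells, −0.06 for ensheathing glia, −0.12 for endothelium and −0.14 for fibroblasts. The fibroblast genes ran from −0.66 to 1.06, the lymphocyte genes from −0.41 to 0.40 and the microvillar genes, 13 of 15 of them positive, from −0.23 to 0.52. Of these lists, ciliated cells had 1 member higher, and fibroblasts 1 higher and 1 lower, at an unadjusted p under 0.05, and the others had none. With the replicate block 3 of 10 lymphocyte genes were higher and none lower, and of 9 fibroblast genes 2 were higher and 3 lower. The block gave 1 higher and 1 lower each for the guanylyl cyclase D neurons and the horizontal basal cells, 1 higher each for microvillar cells, ciliated cells and ensheathing glia, and 1 lower for endothelium. Of 72 cytosolic ribosomal protein genes 1 was higher and 2 lower, with the block none and 2, and of 90 potassium channel genes 3 and 2, with the block 6 and 6. For all these counts, the shares over all probe sets were 1.72% higher and 1.26% lower, and 2.78% and 2.55% with the block.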

How the data were processed

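The authors deposited 1 table of 28846 probe sets on Clariom S mouse arrays, made with Affymetrix Expression Console per the submitters' processing notes. The deposited values (2.13 to 18.99) were read as log2 signals from their range; log base and normalisation are not given in the sources used here. After 6640 controls and 2634 unnamed probe sets were set aside, 19572 remained, for 19505 symbols, all found in RefSeq. The 8 GFP+ arrays were fitted with limma 3.58.1 in R 4.3.3 (lmFit, eBayes, 6 residual and 4.21 prior degrees of freedom), two-sided, with Benjamini-Hochberg adjustment and a threshold of 0.05. The script was tested on simulated data. Where a gene had several probe sets, the brightest on average was described. With 4 arrays per exposure, their number limits the precision.

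The exposures ran simultaneously, per the series' design text. Deviations from the group mean correlated at 0.19, 0.17, 0.27 and 0.43 between arrays of like number and at −0.28 to 0.09 between unlike ones, so the numbers were taken to pair the arrays, and a fit with the replicate number as a block stands beside the unblocked one for the counts over all genes, receptors, receptor families and lists it changed. The SE and intervals of single genes are from the unblocked fit and leave this pairing out. The block changed the SE unequally, from 0.98 to 0.38 for Bpifb9a and from 0.1335 to 0.135 for AW209491.

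The rule for named genes took S100a5, Omp and Fos, the 12 receptors higher and 8 lower with the smallest p, 12 other genes each way with a mean over 2 log2 units above background, and 4 per list; the text leaves some out, a choice made after their values were seen, and names a few signalling and kinase genes for what they encode. The members, the 31 gene lists and the tests were chosen with earlier results of these data known. Alternatives were other scalings, filters, blocks, variance options, array weights, all 16 arrays, a threshold of 0.1 and leaving out arrays. Promoters came from RefSeq (GRCm38.p6).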

Additional observations from a re-analysis of the deposited data

Results flagged for a closer look

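In 26 of 204 groups of 4 arrays, 1 array lay far from the other 3 by Dixon's criterion at 95%. For independent groups chance alone gives this in about 1 of 20. The groups here share the same 8 arrays, and most genes were picked for a small p on them. Whether 26 exceeds chance therefore cannot be read from that rate. Most of these values came from replicate 4 and replicate 3 pools. In octanone replicate 4 they were low for S100a5 (13.92), Olfr1099 (10.77), Ephx1 (11.13) and the means of the calcium and calmodulin kinase genes (10.25) and of the axon guidance and adhesion genes (11.31), and high for Gstp1 (7.71), Hsd11b1 (6.68) and the mean of the microvillar cell markers (8.03). In vehicle replicate 4, S100a5 (13.22) and Olfr394 (13.89) were low, and Fos (10.88) and Lcn2 (10.24) high.

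Several list means and Cyp1a2 were low in the replicate 3 pools. In octanone replicate 3 these were the means of Bowman's gland (8.20), ensheathing glia (6.37) and fibroblast (6.08) markers. In vehicle replicate 3 they were Cyp1a2 (8.90) and the means of sustentacular (9.48) and fibroblast (5.72) markers, of metabolism genes (9.17) and of dorsal zone genes (13.01). In the replicate 1 pools the means of the sex-linked genes were low after 2-octanone (4.43) and vehicle (3.95), as were Olfr1098 (7.59) and Adgb (9.45) after 2-octanone and Alg13 (8.49) after vehicle. Olfr381 was low in octanone replicate 2 (6.11).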

How the results depend on the processing

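No gene was called under any of the 19 alternative settings at an adjusted p under 0.05, nor at 0.1 in the fit as reported. The count at an unadjusted p under 0.05 (582, and 61 receptors) was 173 of 9786 probe sets and 36 of 815 receptors with dim probe sets left out, which leaves fewer to test. It was 1044 and 127 with the replicate number as a fixed block, and 1065 and 100 with it as a random block. In the other settings it stayed within 1.5 times. With each array left out in turn it ran from 542 to 763, and from 56 to 73 for receptors. Most of the 71 named genes were picked for a small p on these same arrays, which the settings reuse. A kept direction was therefore largely fixed in advance. Among the 71, 67 kept their direction in every setting. The others were Fos (0.11; −0.057 with array weights, −0.24 without both replicate 4 pools, −0.88 without octanone replicates 3 and 4, and −0.66 to 0.54 with each array left out in turn), S100a5 (0.37; −0.47 to 1.09 with each array left out), Lcn2 (−0.24) and Cyp1a2 (0.046), the last 2 without octanone replicates 3 and 4. Leaving out 1 array of a like-numbered pair also breaks that pair, as for S100a5, which was low in both replicate 4 pools. Of the list medians, 16 moved by more than the spread between arrays and 540 did not. The cause was not tested. The number of arrays limits all of these: for the median probe set the 95% interval reached 0.39 to either side, and for the median receptor 0.64.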

Other observations

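The genes whose arrays after 2-octanone all lay below those after vehicle were spread unevenly over the chromosomes. Chromosome 7 held 9.34% of the genes and 27 (16.3%) of these, of which 26 were not odorant receptors, and 12 (6.59%) of the genes with the opposite pattern. At an unadjusted p under 0.05, 36 of its 1822 genes were lower and 27 higher, against 1.26% and 1.72% of all probe sets. This was noticed after the values were seen and was not tested.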
